A study of Mus musculus with 6 samples.

Results

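The genes described here are 8 transcription factors and corepressors known from the telencephalon and its cortex: Emx1, Emx2, Tbr1, Fezf2, Bcl11b, Tle4, Cux2 and Neurod6. They were chosen by symbol, and each had 1 row among the 24346 gene rows of every library. The series compared mouse brains labelled embryonic day 17.5, in 3 libraries with the genotype miR-124a-1/2 DKO (both genes knocked out) and 3 control libraries with the genotype miR-124a-1+/- (heterozygous). By these labels all 6 mice carry at least 1 deleted miR-124a-1 allele, and no library is labelled wild type. The labels name 1 brain per library, give no promoter or Cre line, and say nothing of the third gene for this microRNA. The columns of the DKO libraries are headed CKO, which the labels do not explain. Values are in FPKM (fragments per kilobase of transcript, divided by the mapped fragments of the library), so levels can be set side by side between genes.

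The telencephalon is the front part of the embryonic brain and gives rise to the cerebral cortex. EMX1 and EMX2 are homeodomain factors of the dorsal telencephalon and help to set its size and areas. Neurons born there take on layer identities under TBR1, FEZF2 and BCL11B (also called CTIP2) in the deep layers and CUX2 in the upper layers. NEUROD6 is a basic helix-loop-helix factor found across the excitatory neurons of the cortex. TLE4 is a corepressor of the Groucho family that binds no DNA itself and is used as a marker of corticothalamic neurons. Several of these factors are also used outside the cortex: Tbr1 marks a class of retinal ganglion cells and Neurod6 a class of amacrine cells in the mouse retina.

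Levels differed widely between the 8 factors, and 2 of them were listed at 0 throughout. Of the 8 factors 6 had a value above 0, in every library, where 76.3% of all rows had one in at least 1 library. Together the 8 rows summed to 35.5, 37.5 and 37.5 FPKM in the DKO libraries and to 37.2, 37.6 and 36.01 FPKM in the control libraries. This is 0.00880% to 0.00919% of all FPKM in the DKO libraries and 0.00825% to 0.00918% in the control libraries. Tle4, Cux2 and Fezf2 supplied 92.0% to 93.9% of that sum in the DKO libraries and 92.8% to 93.9% in the control libraries. The other 3 factors with a value, Tbr1, Bcl11b and Neurod6, lay near or under 1 FPKM.

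The targeted loci and the depth set the frame for these values. Mir124a-1hg, which hosts miR-124a-1, lay at 464 to 510 FPKM in the DKO libraries and at 420 to 528 FPKM in the control libraries. The row hosting miR-124a-2, listed as 2610100L16Rik, lay at 69.9 to 98.0 FPKM in the DKO libraries and at 80.3 to 115 FPKM in the control libraries. The groups overlapped in both host rows. A value for a whole host transcript does not tell whether the microRNA within it was deleted, so both groups are called by their labels here. Read totals are not among the values used here. For rows with 1 annotated transcript over 1000 bases, FPKM was multiplied by the transcript length in kilobases. The most frequent low value of this product was 0.119 to 0.147 in the DKO libraries and 0.142 to 0.155 in the control libraries. If that value stands for 1 fragment and the libraries were not scaled further, the DKO libraries held about 6820000 to 8410000 mapped fragments. On the same terms the control libraries held about 6470000 to 7040000.

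**Figure D1:**
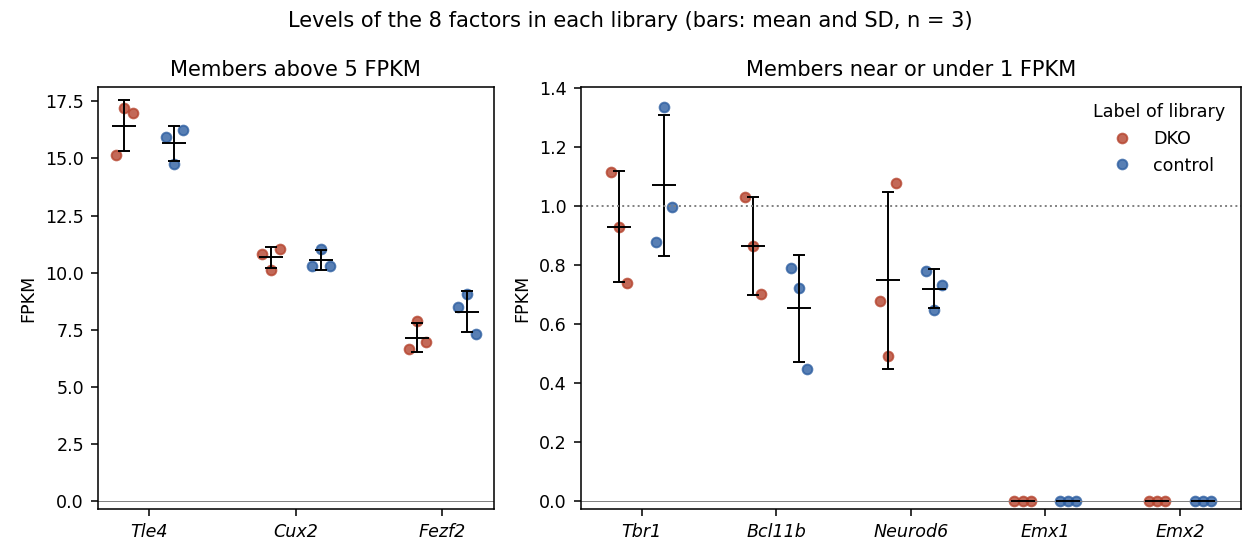
FPKM of the 8 factors in each library, with DKO libraries left and control libraries right of each tick; points are libraries and bars are the mean and SD (n = 3). Tle4, Cux2 and Fezf2 occupy separate ranges between 6.66 and 17.2 FPKM, Tbr1, Bcl11b and Neurod6 share the range from 0.449 to 1.34 FPKM around the dotted line at 1 FPKM, and Emx1 and Emx2 are at 0.

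Emx1 and Emx2, the patterning factors of the dorsal telencephalon, were listed at 0 FPKM in all 3 DKO libraries and in all 3 control libraries. Emx1 (GRCm38 chromosome 6, 85187438 to 85204462) has a longest coding transcript of 1561 bases, on which 3 fragments would give up to 0.297 FPKM in the library of lowest depth. For Emx2 (chromosome 19, 59458372 to 59465357), with 2916 bases, 3 fragments would give up to 0.159 FPKM. Emx2os, a transcript on the strand opposite Emx2 that was looked up after these zeros were seen, was also listed at 0 in all 6 libraries. A listed 0 is shared by 5766 rows, or 23.7% of the table, in all 6 libraries, while 20 housekeeping genes such as Actb, Gapdh and Tbp, looked up for the same reason, lay between 12.4 and 1447 FPKM with none at 0 in any library. Expression of Emx1 and Emx2 was thus not detectable at this depth in either group, and no fold change was formed.

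Tbr1, a T-box factor of early-born deep-layer neurons (chromosome 2, 61802930 to 61814114), measured 1.12, 0.931 and 0.741 FPKM in the DKO libraries, against 0.877, 1.34 and 0.997 FPKM in the control libraries. The groups overlapped, and the highest value was in control replicate 2. The mean over the 6 libraries was 1.0001 FPKM, just at the limit for a row to enter the test across all genes. At this level about 22.3 to 37.4 fragments lie behind each value if its longest coding transcript, of 3977 bases, was the one counted. On the log2(FPKM + 1) scale it differed by -0.10 with SE 0.15 and a 95% confidence interval of -0.44 to 0.24 (limma with Benjamini-Hochberg adjustment over all rows, adjusted p = 0.915). Tbr1 is the 1 member on chromosome 2, and its values did not separate the groups.

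Fezf2, a zinc-finger factor needed for corticospinal neurons (chromosome 14, 12342094 to 12348189), measured 6.66, 7.87 and 6.95 FPKM in the DKO libraries, against 8.49, 9.08 and 7.31 FPKM in the control libraries. The 2 highest libraries were controls, but DKO replicate 2 lay above control replicate 3, so the groups overlapped. The DKO minus control difference in log2 was -0.19 with SE 0.10 and a 95% confidence interval of -0.41 to 0.04 (limma, Benjamini-Hochberg adjusted p = 0.712). This was the smallest p among the 4 factors in the fit, at 0.0980 before adjustment. Fezf2 shares chromosome 14 with Mir124a-1, which starts at 64590657, 52.2 megabases away.

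Bcl11b, the zinc-finger factor that acts with FEZF2 in subcortical projection neurons (chromosome 12, 107910403 to 108003602), measured 1.03, 0.864 and 0.702 FPKM in the DKO libraries, against 0.791, 0.722 and 0.449 FPKM in the control libraries. The DKO mean of 0.866 ± 0.165 FPKM was above the control mean of 0.654 ± 0.181 FPKM (SD, n = 3 each), yet DKO replicate 3 lay under 2 of the controls. With a mean under 1 FPKM the row was not in the fit, and a 2-sided exact permutation test gave p = 0.3, or 0.6 after Benjamini-Hochberg adjustment over the 2 factors tested in this way. The smallest p that 3 libraries against 3 can give is 0.1.

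Tle4, the corepressor, was the highest of the 8 (chromosome 19, 14448150 to 14598051). It measured 15.1, 17.2 and 16.97 FPKM in the DKO libraries, against 15.9, 14.8 and 16.2 FPKM in the control libraries. The lowest library was a control and the highest a DKO library, with the other 4 mixed between them. On the log2 scale the difference was 0.07 with SE 0.07 and a 95% confidence interval of -0.10 to 0.23 (limma, Benjamini-Hochberg adjusted p = 0.866).

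Cux2, the homeodomain factor of upper-layer neurons (chromosome 5, 121856366 to 122050102), was the steadiest of the 6 factors with a value, with a coefficient of variation of 3.89% over the 6 libraries. Its values were 10.8, 10.1 and 11.03 FPKM in the DKO libraries and 10.3, 11.1 and 10.3 FPKM in the control libraries, fully intermixed. Its log2 difference was 0.02 with SE 0.07 and a 95% confidence interval of -0.14 to 0.17 (limma, Benjamini-Hochberg adjusted p = 0.970).

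Neurod6 (chromosome 6, 55677822 to 55681263) measured 0.678, 0.493 and 1.08 FPKM in the DKO libraries, against 0.780, 0.648 and 0.734 FPKM in the control libraries. Both the lowest and the highest value were in DKO libraries, and all 3 controls lay between them. Only about 8.91 to 17.5 fragments lie behind each value on its transcript of 2150 bases, and its coefficient of variation, 26.5%, was the largest of the 6 factors with a value. The exact permutation test gave p = 0.9 before and after adjustment over the 2 factors.

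The order of the levels was the same in both groups down to the third factor. Tle4 was above Cux2 and Cux2 above Fezf2 in each of the 6 libraries, with no overlap of their ranges. Tbr1, Bcl11b and Neurod6 could not be ordered beyond their spread, with means over the 6 libraries of 1.0001 ± 0.207, 0.760 ± 0.194 and 0.735 ± 0.195 FPKM (SD, n = 6). Among all rows of a library Tle4 ranked 5155 to 5844, Cux2 7146 to 7501 and Fezf2 7994 to 9207. The ranks of Tbr1, Bcl11b and Neurod6 lay between 12756 and 14382, and 16782 to 17015 rows had any value above 0.

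**Figure D2:**
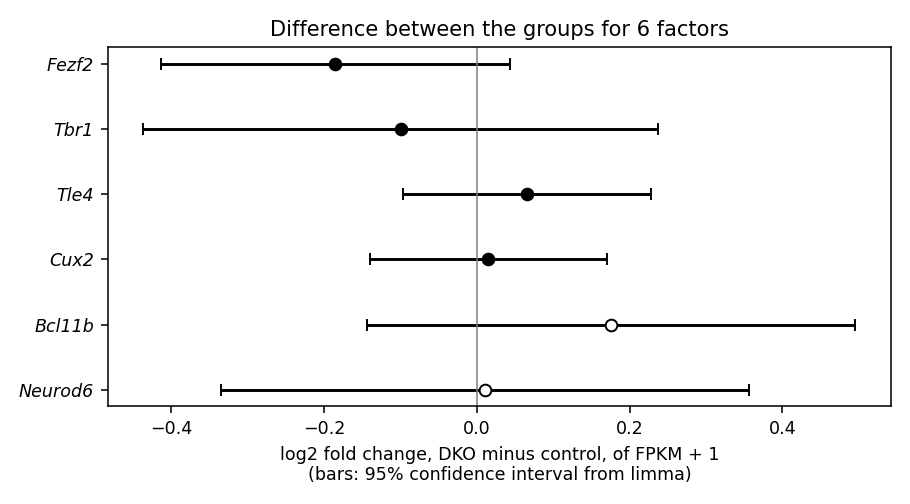
Log2 fold change (DKO minus control, on FPKM + 1) of the 6 factors with a value; bars are 95% confidence intervals from limma, filled points are rows in the fit with a mean of at least 1 FPKM, and open points come from the fit with a limit of 0.5 FPKM. Every interval spans 0, from Fezf2 at -0.19 to Bcl11b at 0.18.

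None of the factors was called different between the groups. Of the 4 in the fit, 0 passed. The log2 fold change was positive for Tle4 and Cux2 and negative for Fezf2 and Tbr1, with a median of -0.04. Over the 13215 rows tested 3 passed, or 0.0227%, so 0 of 4 is near the background and says nothing particular about the factors. At an unadjusted p under 0.05 the count was again 0 of 4, against 7.88% of all rows tested, and over those rows 6537 were above 0 and 6678 below, with a median of -0.0016. For 0 of the 6 factors with a value did the DKO and control libraries separate without overlap, against 13.9% of the rows tested. That share leaves out rows under 1 FPKM, Bcl11b and Neurod6 among them. With so few factors a count of 0 cannot be told apart from it. With the limit lowered to 0.5 FPKM, a setting added after the levels were seen, Bcl11b had a log2 fold change of 0.18 with a 95% confidence interval of -0.14 to 0.50 and Neurod6 0.01 with -0.33 to 0.36 (limma, Benjamini-Hochberg adjusted p = 0.802 and 0.991). These intervals leave room for differences of some size in the low factors, while those of Tle4 and Cux2 are narrower.

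The 3' untranslated regions of the factors were searched for the letters GTGCCTT, which pair with the seed of miR-124 by which the microRNA finds its targets. Bcl11b held 2 matches and Tle4 held 1, in the longest annotated untranslated region of each in GENCODE M21, read on the transcript strand only. The other 6 factors held none. The windows of 30 bases around the matches are shown since these are the factors that hold a match, with the 7 matched bases in capitals.
Bcl11b, chr12:107913783-107913789, minus strand: atttgatgtgcGTGCCTTgaaaaccgatct
Bcl11b, chr12:107911874-107911880, minus strand: gaaggaattctGTGCCTTcccatctatgtt
Tle4, chr19:14448481-14448487, minus strand: gctgatgtacaGTGCCTTtgctgctatgga
The Bcl11b matches start at bases 1611 and 3520 of a region of 4997 bases, and the Tle4 match at base 1247 of 1584. Among 19500 rows with an annotated region 13.3% hold the letters, and among the 7153 with at least 1500 bases 24.6% do. Beside these matches the log2 fold changes were 0.18 for Bcl11b and 0.07 for Tle4, neither past its test, and the other 4 factors with a value had -0.19 to 0.02.

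Some related genes of the same families were more abundant than the factors themselves and others less. Neurod1, a factor of photoreceptors and other neurons, lay at 158 to 170 FPKM in the DKO libraries and 156 to 164 FPKM in the control libraries. Neurod4, of bipolar and amacrine cells among others, lay at 65.5 to 79.7 FPKM in the DKO libraries and 76.7 to 89.6 FPKM in the control libraries, where Neurod6 did not exceed 1.08 FPKM. Neurod2, a cortical factor that amacrine and ganglion cells also use, lay at 4.94 to 5.34 FPKM in the DKO libraries and 5.22 to 6.29 FPKM in the control libraries. Cux1, the partner of Cux2, reached 33.9 to 35.4 FPKM in the DKO libraries and 32.5 to 34.3 FPKM in the control libraries. Bcl11a, the relative of Bcl11b, lay at 4.20 to 5.16 FPKM in the DKO libraries and 3.9994 to 4.54 FPKM in the control libraries. Fezf2 was above Fezf1, which lay at 0.832 to 1.19 FPKM in the DKO libraries and 0.788 to 0.989 FPKM in the control libraries.

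**Figure D3:**
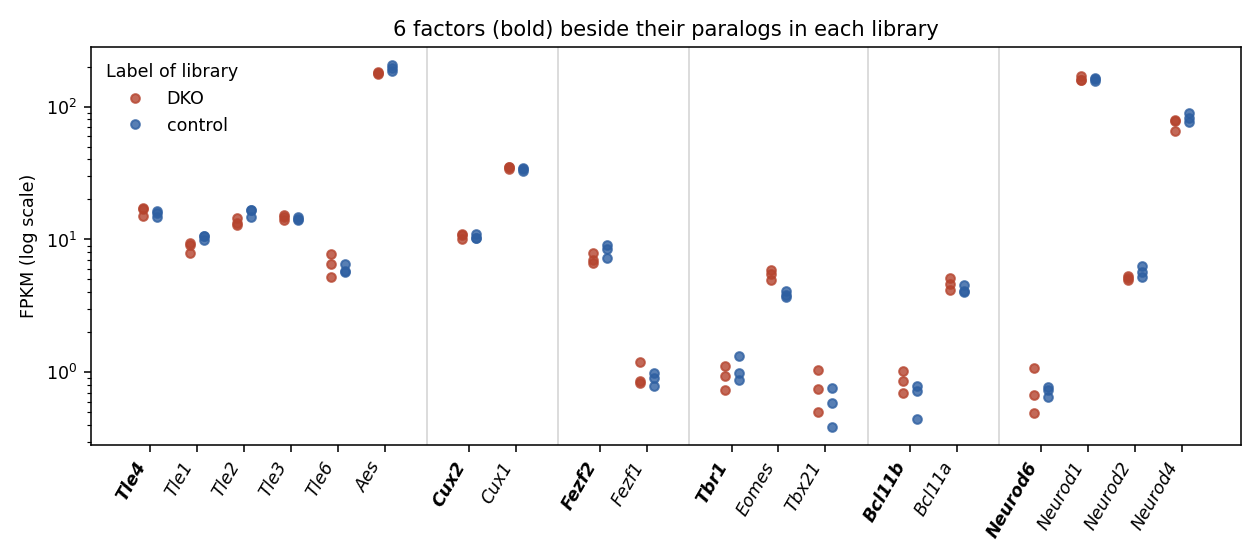
FPKM on a log axis of 6 factors (bold) and their relatives, with DKO libraries left and control libraries right of each tick; each point is a library. Neurod1 and Neurod4 lie far above Neurod6, Cux1 above Cux2 and Bcl11a above Bcl11b, while Fezf2 lies above Fezf1, and Eomes is the relative whose groups stand farthest apart.

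Of the 13 relatives 11 were in the fit, and 0 passed. Of the Groucho relatives only Aes was above Tle4 in its mean over the 6 libraries, and Tbx21, a T-box relative below Tbr1 in its mean, lay at 0.506 to 1.04 FPKM in the DKO libraries and 0.387 to 0.765 FPKM in the control libraries. In 4 of the 11 the groups did not overlap, against 13.9% of all rows tested. The same 4 had an unadjusted p under 0.05 in limma, against 7.88% of all rows tested. Eomes, the T-box relative of Tbr1 that marks intermediate progenitors in cortex and a class of ganglion cells in retina, measured 4.95, 5.91 and 5.50 FPKM in the DKO libraries and 4.06, 3.80 and 3.72 FPKM in the control libraries. On the log2 scale it differed by 0.41 with SE 0.09 (limma, Benjamini-Hochberg adjusted p = 0.336), where Tbr1 had -0.10.

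The other 3 belong to the Groucho family, and all were lower in the DKO libraries without passing. Tle1 had a mean of 8.81 ± 0.856 FPKM in the DKO libraries and 10.4 ± 0.458 FPKM in the control libraries (SD, n = 3 each). Tle2 had 13.6 ± 0.905 FPKM in the DKO libraries and 16.02 ± 1.03 FPKM in the control libraries (SD, n = 3 each). Aes, a short member that lacks the repeats at the end of the protein, had 178 ± 3.18 FPKM in the DKO libraries and 195 ± 9.02 FPKM in the control libraries (SD, n = 3 each). Their log2 fold changes were -0.22, -0.22 and -0.13, with adjusted p of 0.538 to 0.592 (limma, Benjamini-Hochberg). Tle3 at 0.04 and Tle6 at 0.08 were close to Tle4 at 0.07. Whether Tle4 differs from its relatives in this was not tested.

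Set beside other genes of brain regions and of the eye, the 8 factors spanned a wide range, with Tle4, Cux2 and Fezf2 above 77.5%, 69.8% and 64.5% of all rows in their means. Their median in a library was 0.898 to 1.07 FPKM in the DKO libraries and 0.834 to 1.03 FPKM in the control libraries. Of 10 other telencephalic patterning factors 3 were listed at 0 throughout, Dmrt3 and Sp8 among them, and the median was 0.191 to 0.336 FPKM in the DKO libraries and 0.334 to 0.355 FPKM in the control libraries. Otx1, which was singled out after its values were seen, did not overlap between the groups, with 0.0407 to 0.101 FPKM in the DKO libraries and 0.198 to 0.433 FPKM in the control libraries, too low for the fit. The share of rows this low that separate in the same way was not computed. The highest of that list were Lhx2 (19.0 to 23.9 FPKM over the 6 libraries), which retinal progenitors and Müller glia also use, Nr2f1 (6.40 to 7.41 FPKM) and Nr2f2 (3.37 to 4.16 FPKM). Of the 3 genes of this list in the fit 0 passed. Of 10 subpallial factors 4 (Dlx5, Dlx6, Gsx2 and Lhx8) were at 0, and the median did not exceed 0.0257 FPKM in a DKO library or 0.0489 FPKM in a control library. The highest of these were Isl1 (62.9 to 72.8 FPKM) and Six3 (33.8 to 41.2 FPKM), both also factors of the retina, and Nkx2-1 followed at 0.155 to 0.448 FPKM, and of the 2 in the fit 0 passed. Of 10 midbrain and hindbrain factors 4 were at 0 and the highest, Gbx2, reached 1.35 FPKM, followed by Pax2 and Pax8. Their median was 0 FPKM in each DKO library and 0.0294 to 0.0651 FPKM in the control libraries.

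The list of 18 other cortical projection neuron genes was higher, with all of them above 0. Its median was 4.997 to 5.68 FPKM in the DKO libraries and 5.16 to 5.66 FPKM in the control libraries. Crym, a thyroid hormone binding protein, led with 151 to 189 FPKM over the 6 libraries, then Zbtb18 with 39.0 to 46.9 FPKM and Lmo4 with 37.2 to 42.9 FPKM, all genes with wide use in neurons. Foxp2, of corticothalamic neurons, lay at 0.535 to 0.662 FPKM in the DKO libraries and 0.674 to 0.940 FPKM in the control libraries, without overlap. It was under the limit for the fit and was singled out after its values were seen, and the share of such rows was not computed. Of the 16 genes in the fit 9 were above 0, 7 below and 0 passed, with a median log2 fold change of 0.02 against -0.0016 for all rows tested. For 2 of the 16, Sox5 and Pou3f3, named after their values were seen, the groups did not overlap. Over all rows tested the share was 13.9%, so this count is near the background and says nothing particular about the list.

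**Figure D4:**
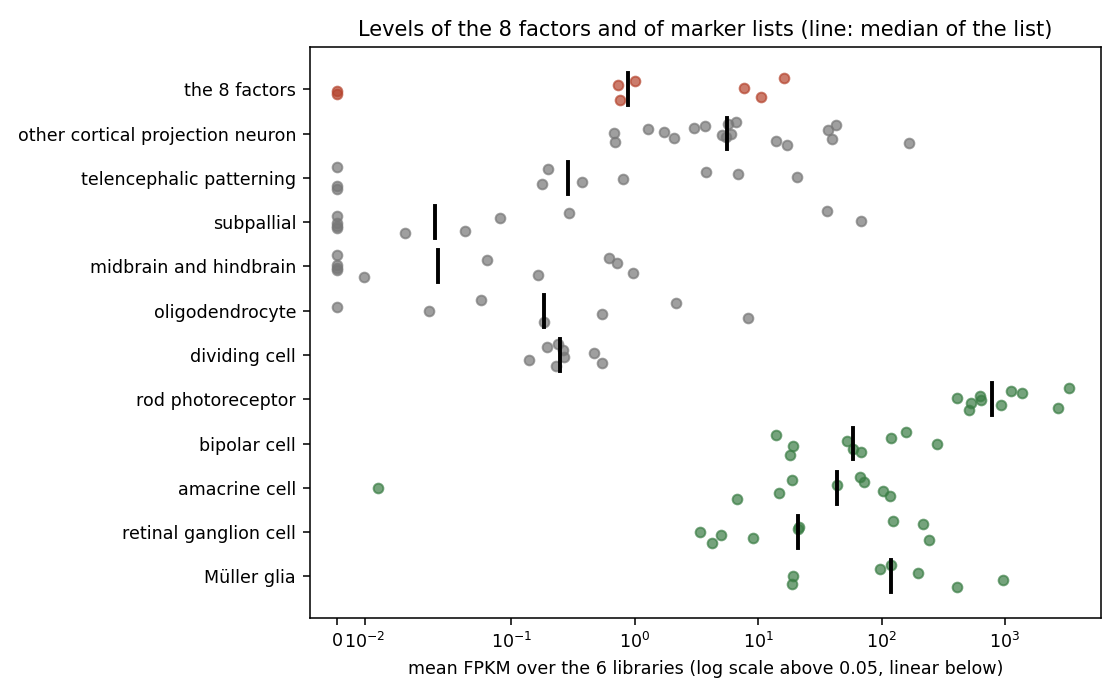
Mean FPKM over the 6 libraries of each gene of the 8 factors (red), of lists of brain regions and dividing cells (grey) and of retinal cell classes (green), on an axis that is logarithmic above 0.05 FPKM and linear below; the line is the median of a list. The rod photoreceptor genes lie between 391 and 3594 FPKM in single libraries, while the 8 factors do not exceed 17.2 FPKM.

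Most genes of retinal cells were above these levels in both groups, the rod genes by far, so the values go against the brain label. The median of 10 rod photoreceptor genes was 765 to 801 FPKM in the DKO libraries and 776 to 841 FPKM in the control libraries, led by Sag, Gnat1 and Prph2. For 9 bipolar cell genes, with Pcp2 and Trpm1 among the highest, it was 55.3 to 63.0 FPKM in the DKO libraries and 55.1 to 58.4 FPKM in the control libraries. For 9 retinal ganglion cell genes, led by Nefl, Sncg and Thy1, it was 18.3 to 20.6 FPKM in the DKO libraries and 19.9 to 22.1 FPKM in the control libraries. The ganglion cell factors Pou4f1, Pou4f2, Pou4f3 and Isl2 were lower, with means over the 6 libraries of 9.10, 4.999, 3.40 and 4.24 FPKM, all under those of Tle4 and Cux2. For 7 Müller glia genes, led by Glul, Apoe and Rlbp1, the median did not overlap between the groups. This median, Vim in each library, was 103 to 116 FPKM in the DKO libraries and 121 to 140 FPKM in the control libraries. Vim differed by -0.21 in log2 without passing (limma, Benjamini-Hochberg adjusted p = 0.530). The sum of the 7 was 1777 to 1907 FPKM in the DKO libraries and 1782 to 1865 FPKM in the control libraries, which overlap. Of the 7 genes 4 had a log2 fold change above 0. The median of 8 genes of dividing cells, led by Birc5, Ccnb2 and Ccnb1, was 0.183 to 0.295 FPKM in the DKO libraries and 0.195 to 0.340 FPKM in the control libraries. An embryonic cortex holds many such cells, so these values also go against the label of a brain at embryonic day 17.5. Among 7 oligodendrocyte genes Olig2 was at 0 and the highest was Mbp (6.80 to 9.59 FPKM over the 6 libraries), while Mog did not exceed 0.758 FPKM.

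Sums over 3 of the retinal lists did not overlap between the groups, and their part in the values of the factors was not tested. The 9 amacrine cell genes, led by Gad1, Pax6 and Slc6a9, summed to 459 to 476 FPKM in the DKO libraries and 403 to 427 FPKM in the control libraries. Ptf1a, the amacrine factor of the embryo, was at 0 in 5 of the 6 libraries. The 9 ganglion cell genes summed to 605 to 629 FPKM in the DKO libraries and 656 to 708 FPKM in the control libraries, and the 9 bipolar genes to 745 to 769 FPKM in the DKO libraries and 803 to 848 FPKM in the control libraries. The amacrine medians did not overlap either, at 45.3 to 47.3 FPKM in the DKO libraries and 38.5 to 43.2 FPKM in the control libraries. The bipolar and ganglion medians given above overlapped. Abundant genes weigh most in a sum: Pcp2 had means of 260 FPKM (DKO) and 302 FPKM (control), and Nefl 221 and 266 FPKM. In the fit 7 of 8 amacrine genes were above 0, while 7 of 9 bipolar and 8 of 9 ganglion genes were below. Over all 13215 rows tested 6537 were above 0 and 6678 below. None of the amacrine, bipolar and ganglion genes passed the test over all rows. In bulk tissue fewer cells of a type and less RNA per cell cannot be told apart.

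Over the 6 libraries the row most like Tbr1 in its pattern was Sdsl (Pearson r = 0.988 on log2 values). The row most like Fezf2 was Sox18 (0.985), that most like Tle4 was Heyl (0.992) and that most like Cux2 was Glod4 (0.987). These are descriptions over 6 libraries that share a tissue, and among 13214 rows there were 52 to 98 above 0.9 for each factor.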

How the data were processed

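Libraries were made with a stranded mRNA kit, per the labels' protocols. The deposited values are FPKM, per the file headers, and were used as they stand. Per the submitters' processing notes, the build was mm10 and the tools were Cuffdiff 2.2.1, TopHat2 2.1.1 and Bowtie2. Not given in the sources used here are annotation, filters and strand settings. Median-of-ratios factors between libraries were 1.00 throughout. Values already scaled in that way would also give this, and whether they were was not tested.

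The 13215 rows averaging at least 1 FPKM over the libraries were fitted with limma 3.58.1 (R 4.3.3) on log2(FPKM + 1) (eBayes with a trend, Benjamini-Hochberg, threshold 0.05). Fold changes on this scale understate those of low genes. Factors under the limit had an exact permutation test on FPKM over 20 assignments. Other steps ran in Python 3.11.15 (NumPy 2.4.6, pandas 2.3.3).

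Fragment numbers are estimates: the most frequent low value times transcript length, over 427 to 481 low rows a library, where 67.4% to 77.8% of values lay within 0.15 of a whole multiple. They assume GENCODE M21 (GRCm38, the assembly of mm10) lengths and no further scaling between libraries, and cover counting error only.

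The 8 factors and the gene lists were chosen with earlier results of these data known. Genes named are the factors, their relatives, the 3 highest of each list and the row most like each factor, with exceptions stated. Some of them are not reported here. Replicates are the brains the labels number, whose litters are not given. Tried as alternatives were no filter, pseudocounts of 0.1 and 0.5, means of at least 0.5 or 5 FPKM, 2 other scalings, replicate number as a block, 3 other variance settings and leaving out each library.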

Additional observations from a re-analysis of the deposited data

How the results depend on the processing

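The number of factors called was 0 in all 17 alternatives. The number of all rows called was 3, and it was 25 with no filter on low values and 1 with eBayes without a trend. Leaving out single libraries gave 1 to 4, the 1 being without control replicate 2. What causes these shifts was not tested. Tbr1, Fezf2 and Tle4 kept their sign in every alternative that tested them: Tbr1 from -0.18 to -0.0094, Fezf2 from -0.26 to -0.12 and Tle4 from 0.03 to 0.12. Bcl11b and Neurod6 were tested only with no filter and with a mean of at least 0.5 FPKM. In the others their value is a difference of group means, 0.08 to 0.37 for Bcl11b. The median of the factors in the fit, -0.04, turned positive where other factors entered or left it (0.013 with no filter or at least 0.5 FPKM, 0.015 with at least 5 FPKM) and without control replicate 2 (0.0087). Tbr1 was not tested with a mean of at least 5 FPKM. Without single libraries Cux2 lay between -0.0070 and 0.048, Neurod6 between -0.12 and 0.12, Neurod1 between -0.011 and 0.040 and Tle6 between -0.037 and 0.21. Cux2 turned to -0.017 with arrayWeights, -0.0070 without DKO replicate 3 and -0.0013 without control replicate 3. Neurod6 turned to -0.0052 with a pseudocount of 0.1, -0.12 without DKO replicate 3 and -0.020 without control replicate 2. Among relatives, Neurod1 turned to -0.011 without DKO replicate 1 and -0.00056 without control replicate 2, and Tle6 to -0.037 without DKO replicate 3. Eomes lay between 0.36 and 0.48, with adjusted p of 0.200 to 0.776 (limma, Benjamini-Hochberg).

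With replicate number as a block, 0 factors and 2 rows in all were called. Deviations from the group means correlated at 0.0063 to 0.10 between libraries of 1 number and at -0.12 to 0.036 between other pairs. Deviations from a mean of 3 libraries sum to 0 in each group, so these values cannot settle whether the numbers pair the libraries. The main fit used no pairing. Depth limits Neurod6, Tbr1 and Bcl11b, with an estimated 8.91 to 59.0 fragments a library.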
